A study of Homo sapiens with 7 samples.

Results

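SP6 and METTL7B were selected on their measured rise in TPM after an antisense oligonucleotide (ASO) against MYH7B. METTL7A, SP1, SP2, SP4 and SP5 were added as close paralogs. These 7 genes were found by symbol among the 60234 genes of the deposited expression table. The cells were cardiomyocytes differentiated with small molecules from WTC-11, an established human induced pluripotent stem cell line, and matured for 35 days. Libraries of poly-A RNA were made after 96 h with 2 uM ASO, taken up passively, from 3 samples given a scrambled ASO and 4 given the MYH7B ASO. All groups share that line and protocol. The labels name no other line and do not say whether replicates are separate differentiations or cultures, so the tests measure the spread between these samples, which may be technical.

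Transcript levels are in TPM, a share of a library's transcripts that is corrected for transcript length and scaled to the same total in each library. MYH7B ASO replicate 1 has its values in another gene order than the other columns. The median of its correlations with the other 6 libraries was 0.408 across genes as deposited and 0.955 after reordering. Single pairs among the others ran from 0.959 to 0.979. That library also stands apart in content: mitochondrially encoded genes held 17.2% of its TPM, against 27.4% to 33.6% elsewhere. The signal recognition particle RNAs RN7SL1 and RN7SL2 held 14.4% of it, against 0.901% to 6.17%. Means and tests therefore use scrambled ASO replicates 1 to 3 and MYH7B ASO replicates 2 to 4, and the reordered replicate 1 is given beside them. The target itself, MYH7B, was at 23.0, 36.5 and 25.1 TPM with the scrambled ASO. With the MYH7B ASO, replicates 2 to 4 held 9.30, 5.65 and 6.31 TPM and replicate 1 held 1.29 TPM, so all 4 lay below the controls (6 libraries, limma adjusted p = 0.0109). This call was lost with replicate 1 (0.0525, limma adjusted p) and without replicate 4 (0.0618).

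SP6, also called epiprofin, is a zinc-finger transcription factor of the SP and KLF group, whose members bind GC-rich promoter elements such as the GC box. It is known for its part in tooth enamel, hair follicle and limb ectoderm development, and is not a usual heart muscle marker. METTL7B and METTL7A, which RefSeq names TMT1B and TMT1A, are membrane enzymes of the endoplasmic reticulum and lipid droplets that methylate thiols, hydrogen sulfide among them.

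METTL7B (ENSG00000170439.7) lies on chromosome 12, plus strand, at positions 55681546 to 55684611, and METTL7A (ENSG00000185432.12) on the same strand at 50923472 to 50932517 (GENCODE 29, GRCh38). The 250 bases before each RefSeq start are shown so that the pair can be compared. They come from RefSeq on GRCh38.p14, at chr12:55681486-55681735 for METTL7B and chr12:50924765-50925014 for METTL7A, plus strand. Both RefSeq starts lie inside the GENCODE spans, so part or all of each stretch is within the annotated gene. Capitals mark the GC box GGGCGG, the CCAAT box CCAAT and the TATA box TATAAA, searched on both strands, so that CCGCCC and ATTGG are the same boxes read from the other strand.
METTL7B promoter: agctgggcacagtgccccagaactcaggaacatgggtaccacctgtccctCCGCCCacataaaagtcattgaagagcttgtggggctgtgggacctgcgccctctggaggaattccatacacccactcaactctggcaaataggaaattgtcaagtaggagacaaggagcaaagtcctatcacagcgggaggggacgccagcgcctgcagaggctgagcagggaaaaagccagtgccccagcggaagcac
METTL7A promoter: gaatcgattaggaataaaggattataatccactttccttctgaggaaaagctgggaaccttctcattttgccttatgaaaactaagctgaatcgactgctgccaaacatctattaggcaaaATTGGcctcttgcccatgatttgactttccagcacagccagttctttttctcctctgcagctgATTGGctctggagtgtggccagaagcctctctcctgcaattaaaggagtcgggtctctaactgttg
The METTL7B stretch holds 1 GC box and no CCAAT box at 57.2% GC. The METTL7A stretch holds 2 CCAAT boxes and no GC box at 44.4% GC. Among 35116 RefSeq promoter stretches of that length, 42.6% held a GC box, 32% a CCAAT box and 10.7% a TATA box, with a median GC content of 58%. Neither stretch held a TATA box. A match is a description of letters and not evidence of a bound site.

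Reads of close paralogs can be misassigned, so shared sequence was measured in the coding regions. The longest identical run of METTL7B and METTL7A is 19 bases long and starts at coding position 413 in both. The longest run of SP6 with any of the other 4 SP genes is with SP5, 37 bases long, at coding position 799 of SP6 and 925 of SP5.
METTL7B and METTL7A: tggatgtggtggtctgcac
SP6 and SP5: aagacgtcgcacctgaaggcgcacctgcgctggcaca
The longest runs of SP6 with SP1, SP2 and SP4 were 10, 15 and 13 bases. Across whole transcripts, 39 of 4044 distinct 31-base words of SP6 (0.964%) occurred in another gene, all 39 in SP9 and 7 in SP5. METTL7B shared 14 of 1503 such words (0.931%), all with ITGA7, which overlaps its end, and none with METTL7A. METTL7A shared 378 of 4133 words (9.15%) with other genes, 46 of them with its pseudogene METTL7AP1. Its level may thus be the less certain of the pair, which was not tested.

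METTL7B was at 5.14, 6.05 and 5.76 TPM in the scrambled controls. MYH7B ASO replicates 2 to 4 held 27.5, 33.3 and 28.6 TPM, and replicate 1 held 19.8 TPM. All 4 MYH7B ASO libraries were above all 3 controls, as they were for 4.7% of all genes tested with 7 libraries (7.11% with 6), and the lowest of replicates 2 to 4 was 4.54 times the highest control. Mean levels were 5.65 ± 0.465 TPM (SD, n = 3) in controls and 29.8 ± 3.09 TPM (SD, n = 3) in replicates 2 to 4, a 5.27-fold ratio of means and a difference of 2.21 on the log2(TPM + 1) scale. This scale adds a pseudocount of 1 and understates changes of low genes. With replicate 1 the mean was 27.3 ± 5.60 TPM (SD, n = 4) and the difference 2.07. Since the gene was chosen for this rise, no test is given.

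SP6 (ENSG00000189120.5) lies on chromosome 17, minus strand, at positions 47844908 to 47855874. Its level was 3.81, 3.68 and 2.59 TPM in controls. With the MYH7B ASO it was at 23.1, 15.0 and 12.4 TPM in replicates 2 to 4, and at 20.1 TPM in replicate 1. Again the groups did not overlap, with the lowest of replicates 2 to 4 at 3.24 times the highest control. Mean SP6 was 3.36 ± 0.670 TPM (SD, n = 3) in controls and 16.8 ± 5.61 TPM (SD, n = 3) in replicates 2 to 4, a 5.01-fold ratio of means and a log2(TPM + 1) difference of 2.00. With replicate 1 the mean was 17.7 ± 4.86 TPM (SD, n = 4) and the difference 2.07. SP6 was chosen for this rise as well, so its values are a description.

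The spread of the raised levels differed between these genes. On the log2(TPM + 1) scale the SD among MYH7B ASO replicates 2 to 4 was 0.44 for SP6 and 0.14 for METTL7B. SP6 was highest in replicate 2, where METTL7B was lowest of the 3. The ratio of SP6 to METTL7B was 0.740, 0.609 and 0.449 in the controls. In MYH7B ASO replicates 2 to 4 the ratios were 0.842, 0.451 and 0.431, which overlap those, and replicate 1 had 1.01. In bulk RNA, more cells expressing a gene and more of its RNA per cell cannot be told apart.

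Among the genes that reached a mean of 1 TPM, METTL7B moved from the 36.6th percentile of level with the scrambled ASO to the 80.7th with the MYH7B ASO. SP6 moved from the 24.6th to the 68.4th. Ranked by log2(TPM + 1) difference, METTL7B was 20 and SP6 27 of 15988 genes. The authors' deposited table gave log2 fold changes, shrunken by the authors, of 2.04 for METTL7B and 1.89 for SP6. Ranked by that value among its 25374 genes, METTL7B was 1 and SP6 was 3 in the authors' deposited table. By the authors' deposited table the mean normalized count was 521 for METTL7B and 1245 for SP6.

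**Figure D1:**
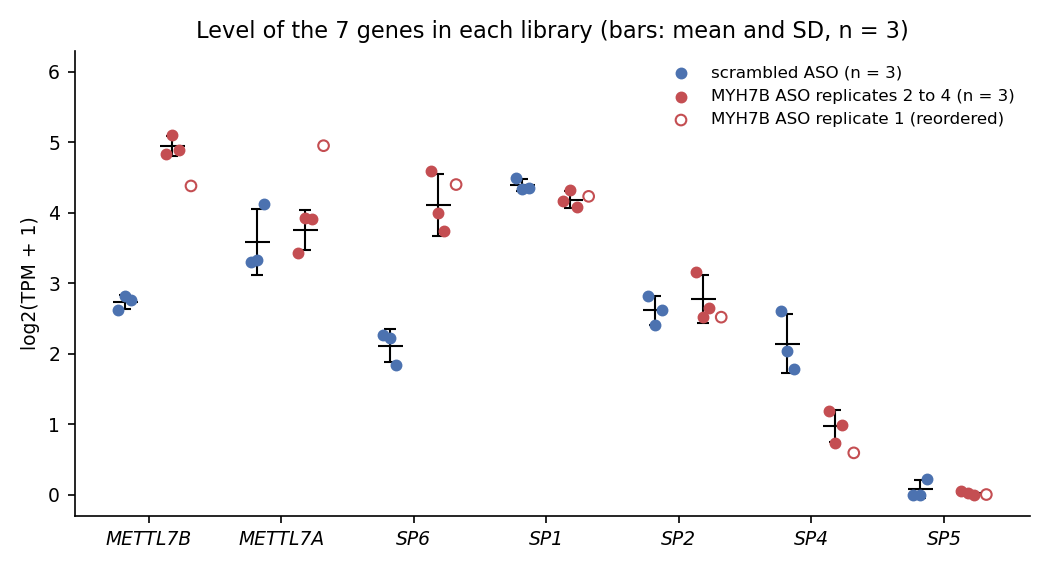
Level of the 7 genes on the log2(TPM + 1) scale in each library, with bars for mean and SD of 3 scrambled ASO libraries and of MYH7B ASO replicates 2 to 4. The open circle is the reordered MYH7B ASO replicate 1. METTL7B and SP6 are higher in all 4 MYH7B ASO libraries than in all 3 controls, SP4 and SP1 are lower, and METTL7A, SP2 and SP5 overlap.

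The paralogs were taken for their family, so each was tested, with limma on log2(TPM + 1) and Benjamini-Hochberg adjustment over 15988 genes. A gene is called where the adjusted p is under 0.05, which held for 265 genes (1.66%): 29 higher (0.181%) and 236 lower (1.48%). Under quantile normalization the same comparison called 55 higher and 203 lower. Of the 7 genes, 6 passed the filter of 1 TPM, and none of the 4 paralogs among them was called, also with 7 libraries, where 1.07% of genes were called. SP4 was the single paralog with an unadjusted p under 0.05, which 2435 of all 15988 genes (15.2%) had.

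METTL7A was at 8.88, 9.06 and 16.4 TPM with the scrambled ASO and at 9.75, 14.2 and 14.0 TPM in MYH7B ASO replicates 2 to 4. These ranges overlapped. Its log2(TPM + 1) difference was 0.17 with a 95% interval from -0.43 to 0.77 (limma adjusted p = 0.809). Replicate 1 was higher than any other library, at 29.96 TPM, and with it the difference was 0.47 (limma adjusted p = 0.592). METTL7A had a shrunken log2 fold change of 0.18 in the authors' deposited table (adjusted p-value 0.710).

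Since METTL7B was chosen for its rise, the balance of this pair is given as a description. The METTL7B to METTL7A ratio was 0.579, 0.668 and 0.351 with the scrambled ASO, with METTL7A the higher of the pair in each library. MYH7B ASO replicates 2 to 4 had ratios of 2.82, 2.35 and 2.05, with METTL7B the higher. The mean ratio was 0.533 ± 0.163 (SD, n = 3) against 2.41 ± 0.389 (SD, n = 3). Replicate 1 did not show that switch: its ratio of 0.662 lay inside the control range, with both genes at high levels. The summed level of the pair was 17.1 ± 4.42 TPM (SD, n = 3) in controls and 42.5 ± 5.14 TPM (SD, n = 3) in MYH7B ASO replicates 2 to 4.

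**Figure D2:**
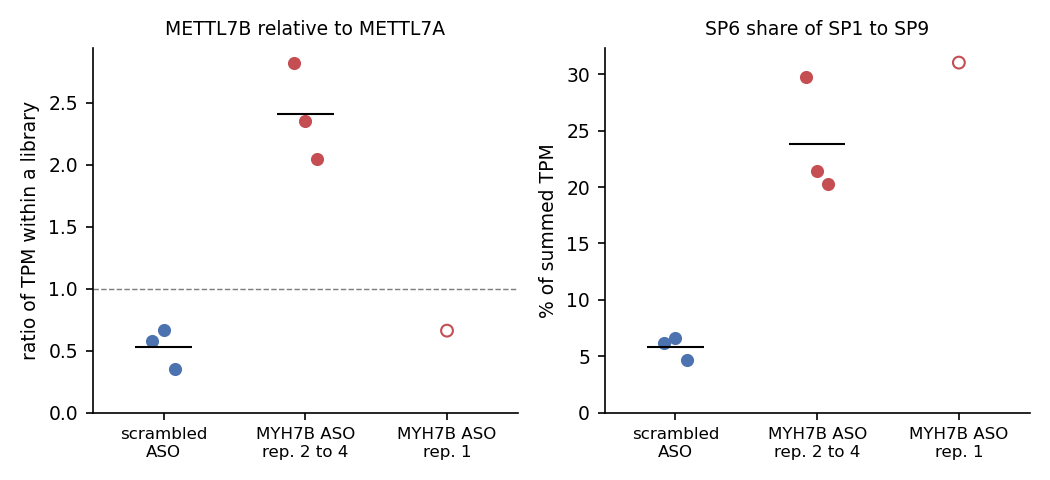
Left, ratio of METTL7B to METTL7A TPM within each library, with a dashed line at equal levels. Right, SP6 as a percentage of summed SP1 to SP9 TPM. Points are libraries, lines are means of 3, and the open circle is the reordered MYH7B ASO replicate 1, whose METTL7 ratio of 0.662 sits among the controls while its SP6 share of 31.02% does not.

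SP1 (ENSG00000185591.10; chromosome 12, 53380176 to 53416446, plus strand), the broadly expressed founding member of the family, was among its most abundant members. It was at 21.5, 19.3 and 19.4 TPM with the scrambled ASO, and at 16.9, 18.9 and 15.9 TPM in MYH7B ASO replicates 2 to 4. Every control was above every one of these, and replicate 1 was at 17.8 TPM. Groups lay apart in the lower direction for 14.1% of all tested genes with 6 libraries and for 10.2% with 7. The difference was -0.21 with a 95% interval from -0.55 to 0.14 (limma adjusted p = 0.570), and -0.14 (adjusted p-value 0.654) in the authors' deposited table.

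SP2 (ENSG00000167182.15; chromosome 17, 47896150 to 47928957, plus strand), another widely expressed member, lies 40.3 kb from SP6. Its level was 6.03, 4.30 and 5.15 TPM with the scrambled ASO and 7.93, 4.74 and 5.25 TPM in MYH7B ASO replicates 2 to 4, with replicate 1 at 4.73 TPM. The ranges overlapped, and the highest value was that of replicate 2, where SP6 was highest too. The difference was 0.16 with a 95% interval from -0.38 to 0.70 (limma adjusted p = 0.791), and without replicate 2 it was -0.03. The antisense gene SP2-AS1 overlaps 31628 bases of the SP2 gene span, introns included. Across whole SP2 transcripts, 39 of 3723 distinct 31-base words (1.05%) occurred in another gene, either strand counted. Strand use in the counting is not given in the sources used here, and any part of SP2-AS1 reads in the SP2 level was not tested.

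SP4 (ENSG00000105866.15; chromosome 7, 21428034 to 21514822, plus strand), a member best known from neurons, was lower in all MYH7B ASO libraries. It was at 5.06, 3.12 and 2.44 TPM in controls. After the MYH7B ASO, replicates 2 to 4 held 1.28, 0.661 and 0.973 TPM and replicate 1 held 0.507 TPM, so the groups did not overlap. Mean SP4 was 3.54 ± 1.36 TPM (SD, n = 3) against 0.970 ± 0.307 TPM (SD, n = 3), a 3.65-fold lower ratio of means. The log2(TPM + 1) difference was -1.18, with a standard error of 0.33 and a 95% interval from -1.92 to -0.43. Over all genes SP4 was not called (limma adjusted p = 0.138), nor was it under any alternative that tested it (0.120 to 0.722). A minimum mean of 5 TPM left SP4 untested. The shrunken log2 fold change of SP4 in the authors' deposited table was -1.03 (adjusted p-value 0.00116), where 8.71% of 15527 genes with an adjusted p-value were under 0.05. The SP4 promoter stretch, shown for comparison with that of METTL7B, is at chr7:21427833-21428082, plus strand (RefSeq, GRCh38.p14), with its last bases inside the GENCODE span and capitals as above.
SP4 promoter: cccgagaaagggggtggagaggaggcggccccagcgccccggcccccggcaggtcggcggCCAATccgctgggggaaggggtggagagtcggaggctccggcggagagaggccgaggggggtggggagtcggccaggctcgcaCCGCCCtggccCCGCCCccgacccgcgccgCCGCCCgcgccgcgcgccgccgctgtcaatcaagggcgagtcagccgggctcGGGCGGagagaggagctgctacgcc
It holds 4 GC boxes and 1 CCAAT box at 78.8% GC.

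SP5 (ENSG00000204335.4; chromosome 2, 170715351 to 170718078, plus strand), a Wnt-responsive member, was listed at 0, 0 and 0.165 TPM with the scrambled ASO. After the MYH7B ASO, replicates 2 to 4 listed it at 0.0331, 0.0126 and 0 TPM, and replicate 1 at 0. SP5 was below the filter and was not tested.

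The order of the SP genes by level changed with SP6 in it. SP3, an abundant relative of SP1, led in every library, at 25.2 ± 0.215 TPM (SD, n = 3) in controls and 28.4 ± 2.27 TPM (SD, n = 3) in MYH7B ASO replicates 2 to 4. Its difference of 0.16 was not called (limma adjusted p = 0.617). In the controls SP1 and then SP2 followed, with SP6 in place 4 or 5 beside SP4. In the MYH7B ASO libraries SP6 was in place 2 in replicates 1 and 2 and in place 3 in replicates 3 and 4, above SP2 and SP4 in each. Its level and that of SP1 were neighbours in that order, at 16.8 ± 5.61 and 17.2 ± 1.56 TPM (SD, n = 3 each), which do not differ beyond their spread. SP6 held 6.21%, 6.60% and 4.71% of the summed TPM of SP1 to SP9 in the controls. Its share was 29.8%, 21.5% and 20.3% in MYH7B ASO replicates 2 to 4, and 31.02% in replicate 1. SP7, SP8 and SP9 had means of at most 0.118 TPM in either group and were not tested.

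The KLF genes are the other branch of this zinc-finger group. Of 17 listed, 13 were tested and 0 were called by limma, with 2 at an unadjusted p under 0.05, against 15.2% of all tested genes. The authors' deposited table had 1 of 13 under its adjusted 0.05, KLF12. Of the 13, 3 had a positive difference and the median was -0.24, against 7221 of 15988 and a median of -0.04 over all tested genes. The most abundant, KLF6 and KLF3, differed by -0.19 and 0.04 (limma adjusted p = 0.609 and 0.946). KLF12, a repressor of the group named here after its values were seen, was at 7.41, 7.49 and 4.65 TPM in controls. MYH7B ASO replicates 2 to 4 held 3.08, 2.05 and 2.52 TPM and replicate 1 held 1.74 TPM. Its difference of -1.07 was not called (limma adjusted p = 0.0869). KLF12 was at -0.995 in the authors' deposited table (adjusted p-value 1.5e-04).

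**Figure D3:**
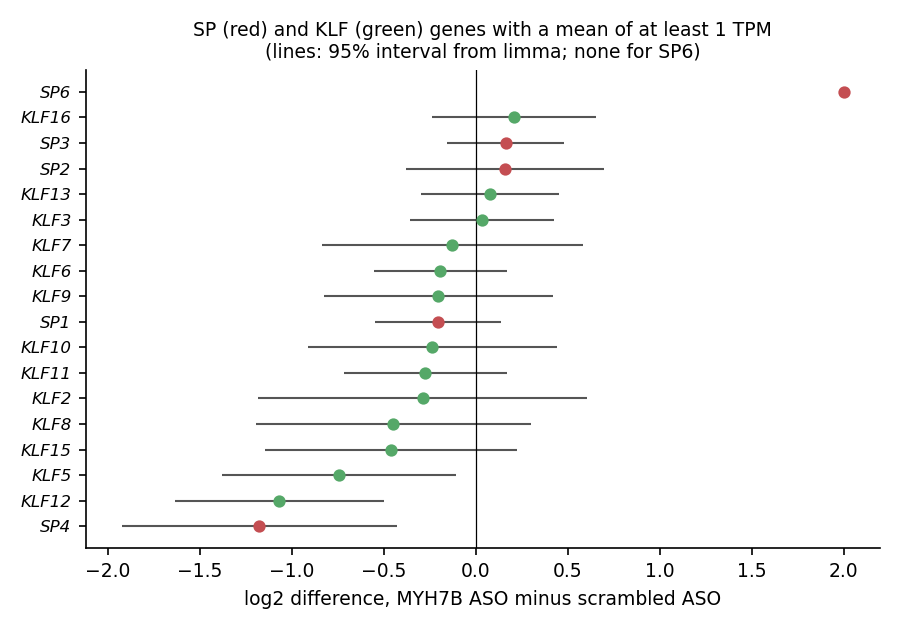
Log2(TPM + 1) difference between MYH7B ASO replicates 2 to 4 and the 3 scrambled ASO libraries for SP (red) and KLF (green) genes of at least 1 TPM, with 95% intervals from limma. SP6, drawn without an interval because it was chosen for its rise, is at 2.00, and the other 17 genes lie between -1.18 and 0.21.

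Genes around each locus were compared, since position was no part of the choice. Of the 10 nearest protein-coding genes of SP6, 5 on each side, 7 were tested and 0 were called. An unadjusted limma p under 0.05 was found for 2 of the 7, against 15.2% of all tested genes. The differences of these neighbours ran from -0.84 to 0.55. The highest was that of SCRN2, the closest at 3.58 kb, with 19.3, 20.9 and 27.3 TPM in controls against 40.4, 33.6 and 26.6 TPM in MYH7B ASO replicates 2 to 4. These ranges overlapped (limma adjusted p = 0.243). SCRN2 was at 0.57 in the authors' deposited table (adjusted p-value 0.0132). The lowest was that of COPZ2, a vesicle coat subunit gene at 170 kb (limma adjusted p = 0.115).

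On chromosome 12, ITGA7, the integrin alpha chain of muscle, overlaps the end of METTL7B by 44 bases on the opposite strand. It was at 51.0, 46.9 and 58.2 TPM in controls and at 62.0, 65.8 and 44.9 TPM in MYH7B ASO replicates 2 to 4, with overlapping ranges. Its difference of 0.13 had a 95% interval from -0.28 to 0.54 (limma adjusted p = 0.775). Of the 10 nearest non-overlapping genes, the 5 at lower coordinates were olfactory receptor genes with means under 0.3 TPM. At higher coordinates 4 were tested and 1 was called, GDF11, against 1.66% of all tested genes.

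GDF11 encodes a secreted TGF-beta family ligand and lies at positions 55743280 to 55757278, plus strand, 58.7 kb from METTL7B. It was at 7.17, 6.49 and 7.15 TPM in controls. MYH7B ASO replicates 2 to 4 held 22.6, 16.2 and 16.1 TPM and replicate 1 held 30.5 TPM, all above the controls. The difference was 1.27, with a 95% interval from 0.84 to 1.69 (limma adjusted p = 0.0162), and 1.45 with replicate 1 (limma adjusted p = 0.0270). Leaving out any of the 6 libraries ended the call (limma adjusted p = 0.0503 to 0.0630) with the difference between 1.11 and 1.35. GDF11 was at 1.31 in the authors' deposited table (adjusted p-value 2.39e-14). Of the genes between METTL7B and GDF11, BLOC1S1 differed by 0.19, RDH5 by 0.26 and CD63 by 0.06 (limma adjusted p = 0.668, 0.777 and 0.891).

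**Figure D4:**
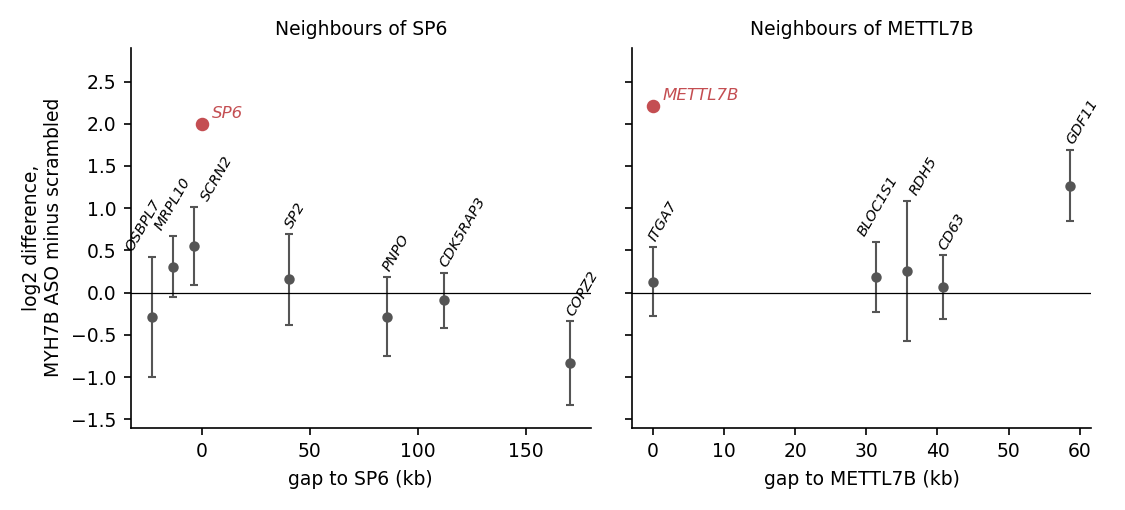
Log2(TPM + 1) difference of tested protein-coding neighbours against their gap to SP6 (left) and METTL7B (right) in kb, with 95% intervals from limma. The neighbours of SP6 lie between -0.84 and 0.55, and GDF11, 58.7 kb from METTL7B, is at 1.27 beyond BLOC1S1, RDH5 and CD63.

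Lists of genes tied to the known roles of SP6 were examined next. For comparison with each list, 1.66% of all tested genes were called by limma and 15.2% had an unadjusted limma p under 0.05. Of 14 ameloblast and enamel genes 6 were tested, 0 were called by limma and 1 had an unadjusted p under 0.05. Their median difference was -0.02, beside -0.04 for all tested genes. The enamel matrix genes AMELX, AMBN, ENAM and AMTN, and the enamel proteases MMP20 and KLK4, were all under 0.1 TPM. FST, which encodes the activin-binding protein follistatin, was at 14.2, 15.6 and 17.7 TPM in controls and 14.03, 13.4 and 11.3 TPM in MYH7B ASO replicates 2 to 4. Its difference of -0.27 was not called (limma adjusted p = 0.486). ODAM, another list gene, was at 0.911, 0.593 and 2.26 TPM in controls and 4.80, 1.63 and 1.71 TPM in MYH7B ASO replicates 2 to 4. Its ranges overlapped, and the difference of 0.69 was not called (limma adjusted p = 0.509). Of the 6 tested, 3 had a positive difference. Under an adjusted 0.05 in the authors' deposited table was 1 of 5 list genes.

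Of 11 limb ectoderm genes 5 were tested, 0 were called and 1 had an unadjusted limma p under 0.05, with a median of 0.18. Its most abundant members, CTNNB1, the Wnt effector beta-catenin, and BMP4, a growth factor, differed by 0.24 and 0.18 (limma adjusted p = 0.403 and 0.803). Of 17 Wnt target genes 11 were tested, 0 were called and 2 had an unadjusted limma p under 0.05, with a median of -0.07. BAMBI and CCND1, its most abundant members, differed by -0.07 and -0.20. The authors' deposited table had 1 of 5 limb ectoderm genes and 2 of 13 Wnt targets under its adjusted 0.05.

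For METTL7B the lists covered lipid droplets, hydrogen sulfide and methyl transfer. Of 20 lipid droplet genes 14 were tested, 0 were called and 2 had an unadjusted limma p under 0.05, both higher. Their median was 0.15, with FITM1, a triglyceride-binding protein gene of muscle, at 0.40 and PLIN3, a droplet coat gene, at 0.02 (limma adjusted p = 0.467 and 0.968). Of 9 hydrogen sulfide genes 8 were tested, 0 were called and 0 had an unadjusted limma p under 0.05, with a median of 0.13. GOT1 and MPST, its most abundant members, differed by 0.03 and 0.08. Of 22 further METTL genes 20 were tested, 0 were called and 1 had an unadjusted limma p under 0.05, with a median of -0.05. METTL9, a histidine methyltransferase gene, differed by 0.02 and METTL26 by 0.25 (limma adjusted p = 0.956 and 0.585). Under an adjusted 0.05 in the authors' deposited table were 2 of 15 lipid droplet genes, 0 of 8 hydrogen sulfide genes and 0 of 20 further METTL genes.

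Of 13 genes listed as methyltransferases of small molecules 11 were tested and 1 was called, lower: NNMT, which methylates nicotinamide. In all 6 of the 11 had an unadjusted limma p under 0.05, 1 of them higher, against 15.2% of all tested genes. The authors' deposited table had 2 of 11 under its adjusted 0.05, NNMT lower and GAMT higher. NNMT was at 15.4, 8.13 and 25.3 TPM in controls and at 0.772, 1.05 and 1.19 TPM in MYH7B ASO replicates 2 to 4, with no overlap. Its difference was -2.98, with an SE of 0.36 (limma adjusted p = 0.00875). Replicate 1 was at 27.7 TPM, above every control, and with it NNMT was not called (-2.02, limma adjusted p = 0.371). Leaving out MYH7B ASO replicate 4 also ended the call (limma adjusted p = 0.0506). NNMT was at -1.79 in the authors' deposited table (adjusted p-value 2.52e-11). The most abundant of the list, GAMT of creatine synthesis and INMT, differed by 0.34 and -0.68 (limma adjusted p = 0.239 and 0.240), and the list median was -0.01.

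**Figure D5:**
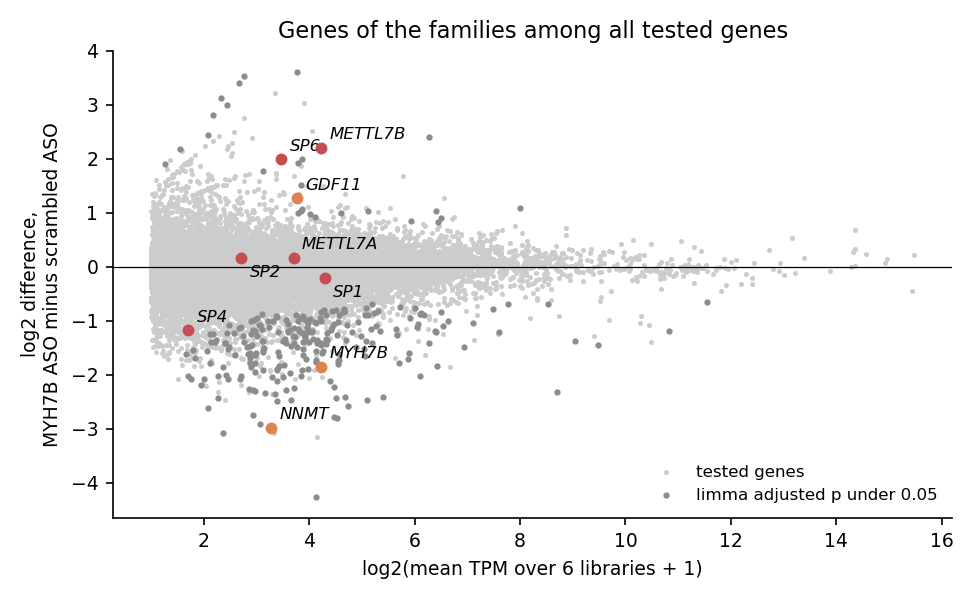
Log2(TPM + 1) difference against mean level over 6 libraries for 15988 tested genes, the 265 called genes in dark grey. The 6 tested genes of the families are in red and MYH7B, GDF11 and NNMT in orange. METTL7B (2.21) and SP6 (2.00) lie high in the cloud, while METTL7A, SP1 and SP2 lie near 0.

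Markers of cell types in which SP6 or METTL7B are known to be expressed were read beside these values. Of 10 epithelial markers 5 were tested and 0 were called by limma (1 at an unadjusted p under 0.05). Their summed level was 20.7 to 26.9 TPM in controls, 14.1 to 19.2 TPM in MYH7B ASO replicates 2 to 4 and 31.9 TPM in replicate 1. The most abundant of the list was CDH1, the E-cadherin gene, at 13.6, 14.0 and 15.98 TPM in controls. It was at 4.48, 11.4 and 6.35 TPM in MYH7B ASO replicates 2 to 4 and 23.9 TPM in replicate 1 (difference -0.97, limma adjusted p = 0.158). ESRP1, the next most abundant of the list, and EPCAM, another epithelial adhesion gene, differed by -0.35 and 0.37 (limma adjusted p = 0.763 and 0.646). Of the 5 tested, 2 had a positive difference, with a median of -0.17. The authors' deposited table had 1 of 6 epithelial markers under its adjusted 0.05, CDH1, lower. The part of epithelial cells in the SP6 level was not tested. Of 10 hepatocyte markers 1 was tested, APOA1, a lipoprotein gene. It was at 4.03, 6.39 and 5.57 TPM in controls and 14.8, 12.6 and 9.37 TPM in MYH7B ASO replicates 2 to 4, with no overlap (difference 1.06, limma adjusted p = 0.0706). Replicate 1 held 14.5 TPM, and with it the difference was 1.12 (limma adjusted p = 0.0546). Groups lay apart in the higher direction for 7.11% of all tested genes with 6 libraries and for 4.7% with 7. The authors' deposited table had 1 of 2 hepatocyte markers under its adjusted 0.05, APOA1, higher. The hepatocyte markers TTR and HNF4A were under 0.1 TPM. The summed hepatocyte list was 6.15 to 7.77 TPM against 11.1 to 16.5 TPM, and its part in the METTL7B level was not tested.

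Markers of the labelled cell type were present throughout. All 10 cardiomyocyte markers were tested and 0 were called by limma (5 at an unadjusted limma p under 0.05, all lower, against 15.2% of all genes). Their summed levels were 9751 to 10877 TPM in controls, 8280 to 10540 TPM in MYH7B ASO replicates 2 to 4 and 7926 TPM in replicate 1, the lowest. Of 10 fibroblast markers 2 were called, both lower, with a list median of -0.93: the collagen gene COL1A2 (-1.38, limma adjusted p = 0.0343) and LUM, a collagen-binding proteoglycan (-2.22, limma adjusted p = 0.0489). In all 8 of the 10 had an unadjusted limma p under 0.05, 2 of them higher: PDGFRA, a growth factor receptor gene, and TCF21, a transcription factor gene (differences 0.60 and 0.71, limma adjusted p = 0.152 and 0.168). Of the list, 5 lower and 2 higher genes (PDGFRA and TCF21) were under an adjusted 0.05 in the authors' deposited table. The summed level of the list, mostly collagen genes, was 2933 to 5254 TPM in controls, 1389 to 2132 TPM in MYH7B ASO replicates 2 to 4 and 4155 TPM in replicate 1. Neither COL1A2 nor LUM was called with replicate 1 (limma adjusted p = 0.207 and 0.391), and with 1 of the 6 libraries left out both were called only without scrambled ASO replicate 3 (0.0458 and 0.0217, limma adjusted p), with values up to 0.157 and 0.191 otherwise. Of 7 smooth muscle markers 1 was called, MYH11, at 58.6, 74.2 and 77.6 TPM in controls and 7.64, 15.6 and 15.4 TPM in MYH7B ASO replicates 2 to 4 (-2.41, limma adjusted p = 0.00599), with a list median of -0.39 and 3 of 7 at an unadjusted limma p under 0.05, all lower. The fibroblast sum moved with the groups in the 6 libraries, and its part in the SP6 and METTL7B levels was not tested. Endothelial markers (2 of 8 tested, median -0.49) and pluripotency markers (3 of 8 tested, median -0.22) had 0 called, with 1 and 0 at an unadjusted limma p under 0.05, and none of 8 macrophage markers passed the filter. Under an adjusted 0.05 in the authors' deposited table were 1 of 10 cardiomyocyte, 3 of 7 smooth muscle and 1 of 4 endothelial markers, all lower. Pluripotency markers had 0 of 5 there.

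The genes closest to each in profile were named by the root mean square difference of log2(TPM + 1), each gene centred on its own mean, over the 6 libraries. Because SP6 and METTL7B were chosen for the group difference, this likeness is largely that difference again. For METTL7B the nearest were AC008608.2 (0.27), AL445928.1 (0.30), F10, the coagulation factor X gene (0.31), SERPINI1, the neuroserpin gene (0.33), and FGF7, a fibroblast growth factor gene (0.34). Factor X (F10) was at 3.17, 4.90 and 6.54 TPM in controls and 24.9, 20.0 and 17.5 TPM in MYH7B ASO replicates 2 to 4. SERPINI1 was at 16.1, 35.6 and 22.3 TPM against 142, 116 and 128 TPM. FGF7 was at 6.29, 5.78 and 2.87 TPM against 19.2, 23.3 and 23.8 TPM. In MYH7B ASO replicate 1, which did not enter the distance, F10 and FGF7 were at 20.6 and 17.7 TPM, above every control. SERPINI1 at 33.0 TPM lay inside the control range there. AC008608.2 and AL445928.1 were listed at 0 in that library and in every control. For SP6 the nearest were AL135790.1 (0.15), AC008608.2 (0.17), AL390726.2 (0.24), MRPL53P1 (0.25) and TMEM183AP1 (0.29). All but AL390726.2 were listed at 0 in every control and in replicate 1, so these are low-level genes and pseudogenes. SP6 and METTL7B were 0.35 apart and each in place 7 of the other's order.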

How the data were processed

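The data are deposited tables from poly-A RNA sequencing of 7 libraries, grouped by the treatment label. The first table holds TPM, which the authors scaled to the same total in each library. Per the submitters' processing notes, DESeq2 and the build GRCh38.p13 were used, with no role or version given. The authors' deposited comparison table holds a mean normalized count (a signal over its libraries), a log2 fold change that its name calls shrunken, a test score and p-values. The aligner, the counter and the libraries behind that table are not given in the sources used here. TPM keeps no record of sequencing depth, so the depth is unknown and the SD between libraries is the error.

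The column of MYH7B ASO replicate 1 holds as many values as GENCODE 29 has genes and was reordered by those sorted identifiers, so its levels may carry a difference in annotation. This library was left out of the fit and is used as an alternative. Genes whose mean over the 6 libraries reached 1 TPM were tested with limma 3.58.1 (R 4.3.3, lmFit and eBayes with a trend, no covariate, two-sided) on log2(TPM + 1), with Benjamini-Hochberg adjustment. The script was tested on simulated data. Python 3.11.15, pandas 2.3.3 and matplotlib 3.10.9 made the tables and plots.

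The genes and the 17 gene lists (198 genes, of which METTL13 was not matched by symbol) were chosen with earlier results of these data known. Genes named are the 7 members, MYH7B, called list genes and neighbours, the 5 nearest profiles of SP6 and of METTL7B, and the 2 most abundant genes of a list, of which 1 result is not reported here. SCRN2, COPZ2, KLF12, PDGFRA, TCF21, EPCAM, ODAM, the tested genes between METTL7B and GDF11 and the enamel genes at low levels were named after their values were seen. Gene positions are from GENCODE 29 on GRCh38, and promoters from RefSeq. Alternatives were other pseudocounts, filters, scalings, replicate blocks and library sets.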

Additional observations from a re-analysis of the deposited data

Results flagged for a closer look

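SP2 in MYH7B ASO replicate 2, at 7.93 TPM, lay far above the other 3 MYH7B ASO libraries, which were at 4.73, 4.74 and 5.25 TPM. In a group of 4 the gap to the nearest library was a larger part of the whole range than chance gives in about 1 of 20 groups. The number of groups screened is not given here, and a screen of many groups finds some such gaps by chance. SP6 was also highest in that library, at 23.1 TPM.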

How the results depend on the processing

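Each result was recomputed under 17 alternatives. SP6 stayed higher in the MYH7B ASO group, by 1.36 (pseudocount 5) to 2.26, and METTL7B by 1.71 (pseudocount 5) to 2.38 (pseudocount 0.1). METTL7B differed by 2.04 with 7 libraries and the replicate block. METTL7A differed by -0.051 with the replicate block by title number, a reversal. SP2 ran from -0.031 to 0.29 with 1 library left out. SP5 was at -0.27 with a pseudocount of 0.1. SP1 and SP4 kept their negative sign under all 17. Apart from SP6, for which no test is given, no tested SP or KLF gene was called under any of them.

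The 265 calls became 170 with 7 libraries (167 in common), 40 with no minimum mean, and 53 to 149 with 1 library left out. Calls in the pathway and marker lists, 4 in all, became 1 with 7 libraries, 8 with median-ratio rescaling, 8 with quantile normalization, 7 with a minimum mean of 5 TPM, 0 with no minimum mean, and 1 to 4 with 1 library left out. The neighbour call, GDF11, became 0 with no minimum mean and 0 to 0 with 1 library left out. The median of all tested genes moved between -0.11 and 0.04 on the log2 scale.

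With the replicate block by title number, by description number, or by title number over 7 libraries, 0 genes were called, so list and neighbour calls were 0 as well (limma, 1718, 1096 and 1773 genes at an unadjusted p under 0.05). In the 6 libraries only scrambled ASO replicates 2 and 3 shared a number with a MYH7B ASO library. The block fits, also with 7 libraries, thus had little left from which to estimate the spread. Their lack of calls cannot tell whether the calls depend on a pairing. Deviations from the group mean of libraries with the same number had a mean correlation of 0.093 by title and -0.0558 by description. The other pairs had -0.0266 by title and 0.0159 by description. No label says that a number marks a shared culture, so whether same-numbered libraries share more than a number is unknown. The depth is unknown, so how it limits low genes such as SP5 was not tested.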
